A study of Mus musculus with 16 samples.

Results

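The genes described here encode the leukocyte β2 integrin chains other than αD and the proteins that switch these integrins on from inside the cell. They were set by name and matched to the files by Ensembl identifier, and all 9 were found among the 49315 genes counted. Itgal, Itgam and Itgax encode the α chains αL (CD11a), αM (CD11b) and αX (CD11c), and Itgb2 encodes the shared β2 chain (CD18). Fermt3 encodes kindlin-3, Tln1 encodes talin-1, Rap1b encodes a small GTPase, and Apbb1ip (RIAM) and Skap2 encode adaptors. Neutrophils of blood and lung were sorted by the surface markers Ly6G, CD11b and CD45.2, all positive, and their RNA was sequenced. The mice were WT or αD KO, a strain from the Jackson Laboratory in which Itgad was targeted. They were taken at the baseline (0h, untreated) or 12 hours post CLP (cecal ligation and puncture, a surgical model of abdominal sepsis). The labels give male mice of 8 to 12 weeks for the surgery. The 8 groups hold 3 count files each, from 16 deposited samples. Sample 1 of each group has a pair of files, named libraries 1a and 1b below, and sample 2 has 1 file, named library 2. The study describes its sequencing as triplicates, which is the number of files per group. It is not stated whether the pair of files stands for 1 animal or 2 or how many animals were pooled, so the p-values measure the spread between these libraries, which may be technical. Because the sort selected cells by CD11b, the protein of Itgam, all groups were chosen for that chain on the surface.

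A β2 integrin is a pair of an α chain and the β2 chain, and the β2 chain needs an α partner to reach the cell surface. On resting leukocytes the pair is bent and binds ligand poorly. Chemokine and other receptors load Rap1 with GTP, RIAM and related adaptors bring talin to the tail of the β chain, and kindlin-3 binds the same tail, after which the extracellular part extends and binds ligands such as ICAM-1 or complement fragments. Neutrophils use αLβ2 and αMβ2 to arrest on the vessel wall, crawl and take up opsonised particles, while αX is best known from dendritic cells and macrophages.

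Total counts per library were 5753476 to 29984954 (median 18741144), with 5753476 to 17976890 in the 8 libraries 1b and 16565779 to 29984954 in the other 16. Levels are given as CPM, the library-size scaled unit that edgeR computes with TMM factors over the 24 libraries. The libraries 1b stand apart from the rest, with 29162 to 38844 genes detected against 17132 to 32666 in the other 16, and they gave the lowest value in 50 of the 72 combinations of member and group. In addition, the αD KO lung libraries of each time differed from one another in several members, most of all library 2 at 0h and library 1b at 12 hours. Fitted results that rest on these libraries are given with and without single ones of them, ratios are given library by library, and the labels are used as they stand. Itgad was 12.5 to 102 CPM in αD KO-labelled libraries and 0.0583 to 3.67 CPM in those labelled WT, which is the opposite of what the genotype label names. Counts summed over a gene cannot tell reads of the altered allele from an exchange of the genotype labels, which would turn every genotype direction below around. Genotypes are used below as labelled. The 8 neutrophil markers, S100a8 and Csf3r among them, summed to 29407 to 212372 CPM in every library, and none was at 0. The sum of 8 B cell markers was 22.7 to 1588 CPM and that of 8 platelet markers 12.3 to 809 CPM.

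The α chain genes lie on chromosome 7 (GRCm38), near the targeted gene. Itgal spans 127296260 to 127335138, Itgam spans 128062640 to 128118491 and Itgax spans 128129547 to 128150657, at distances of 819 kb, 35.9 kb and 3.72 kb from Itgad. A genotype effect on these genes and an effect of the flanking sequence that came with the targeted allele cannot be told apart. Itgb2 lies on chromosome 10 from 77530252 to 77565708 and Rap1b on chromosome 10 from 117814471 to 117845935. Fermt3 lies on chromosome 19 from 6998958 to 7019469, Tln1 on chromosome 4 from 43531519 to 43562691, Skap2 on chromosome 6 from 51857422 to 52012549 and Apbb1ip on chromosome 2 from 22774094 to 22875653. The annotated gene Gm49368, on the same strand, shares 3450 of the 5024 exon bases of Itgam (68.7%). Gm49368 had 4950 counts over the 24 libraries against 225926 for Itgam. Adding these few counts to those of Itgam moved no call of Itgam, but cannot show the effect of reads that are in neither count. With so few counts on the 4803 exon bases of Gm49368, reads in the shared exons were not counted for both genes. They were either left out or given to Itgam alone, which the sources used here do not state. If they were left out, the level of Itgam per length is understated. Tln1 shares 3.67% of its exon bases with Creb3 and Fermt3 3.36% with Trpt1, both on the opposite strand, and the strand used in counting is not given in the sources used here.

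Promoter sequence was available for 7 of the 9 members from RefSeq (GRCm38.p6). The 250 bases before the start sites of Itgam and Itgax are shown because these neighbouring genes moved in opposite directions after CLP in WT blood. Capitals mark GAGGAA on either strand, the core letters of sites for the myeloid factor PU.1. No match to the other motifs searched overlapped these letters.
Itgam, chr7:128062390-128062639, plus strand: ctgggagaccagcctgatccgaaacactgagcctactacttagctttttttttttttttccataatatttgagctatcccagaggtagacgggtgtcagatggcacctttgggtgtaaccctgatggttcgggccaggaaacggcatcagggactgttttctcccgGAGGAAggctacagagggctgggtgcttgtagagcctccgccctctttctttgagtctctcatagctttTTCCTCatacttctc
Itgax, chr7:128129300-128129549, plus strand: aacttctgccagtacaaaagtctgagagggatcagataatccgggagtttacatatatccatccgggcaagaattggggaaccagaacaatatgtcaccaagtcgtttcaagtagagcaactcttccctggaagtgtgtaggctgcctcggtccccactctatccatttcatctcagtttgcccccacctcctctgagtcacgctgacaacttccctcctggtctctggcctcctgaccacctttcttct
The Itgam window held GAGGAA 2 times, and the Itgax window did not hold it. Of the members with sequence, Tln1 also held it, 1 time. These letters occur in 23.3% of the 32851 promoter windows of this length in the table. A GC box, GGGCGG on either strand, occurred 4 times before Rap1b, 2 times before Skap2 and 1 time before Itgam, against 32.7% of all windows with at least 1. TTGCNNAA, a form of the C/EBP site searched on either strand, was found before Apbb1ip only, and 9.56% of windows held it. A match of letters is a description of the sequence and not a measured binding site.

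Per kilobase of exon, Rap1b and Itgb2 had the highest levels of the 9 genes and Itgax the lowest. The median over the 24 libraries was 612 CPM per kb for Rap1b and 597 CPM per kb for Itgb2, and each library had 1 of these genes at the top, Rap1b in 14 and Itgb2 in 10. Kindlin-3 transcript (Fermt3) had a median of 100.04 CPM per kb, followed by Itgal at 82.0, Itgam at 80.5, Tln1 at 51.9, Skap2 at 41.8, Apbb1ip at 21.4 and Itgax at 10.9 CPM per kb. Counted on its 1574 unshared bases alone, Itgam would have a median of 257 CPM per kb, so its place in this order depends on how shared exons were counted. Neighbours in this order overlapped in their ranges over the libraries, except Itgb2, which was at least 249 CPM per kb, and Fermt3, which was at most 226 CPM per kb. Itgax was the lowest member in 19 libraries and Apbb1ip in the other 5, all per kb. The spread across libraries was widest for Itgax, from 1.07 to 208 CPM, and narrowest for Tln1, from 296 to 839 CPM. The lowest Itgax value rested on 12 counts.

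**Figure D1:**
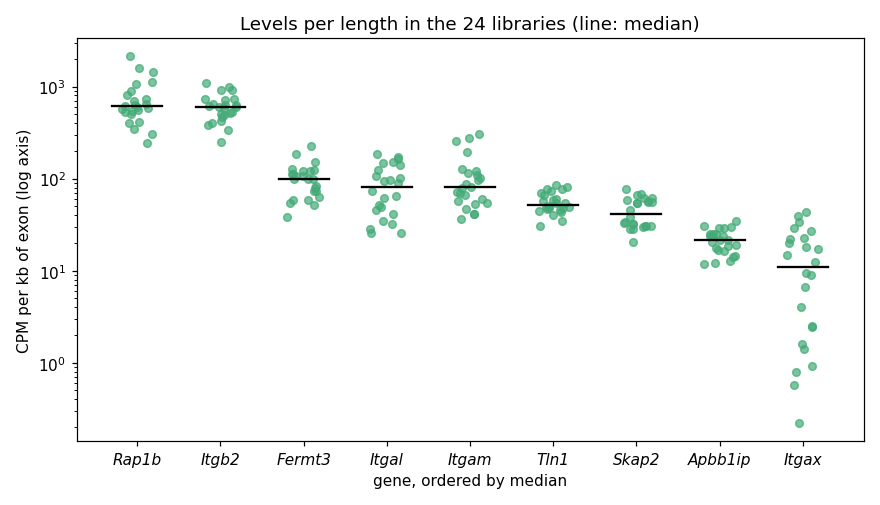
Levels of the 9 genes in CPM per kb of exon on a log axis, with 1 point for each of the 24 libraries and a line at the median. Rap1b and Itgb2 have the highest medians, 612 and 597 CPM per kb, and Itgax spans the widest range.

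The first question was how the genes moved in the blood of WT mice 12 hours post CLP. The α chains moved in opposite directions, as Itgam rose 3.51-fold, Itgal fell to 0.279 of its baseline and Itgax fell to 0.0536 of its baseline, while Itgb2 and all activators did not pass the test. The test was the quasi-likelihood F test of edgeR, fitted to these 6 libraries, with a gene called at a Benjamini-Hochberg adjusted p under 0.05 over all genes tested and an absolute log2 fold change over 1. It called 3 of the 9 members, 1 higher and 2 lower, and 13.5% of the 14625 genes tested. The median log2 fold change was 0.62 over the members and -0.15 over all genes tested.

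Itgam was 272, 181 and 397 CPM at 0h and 1296, 642 and 1523 CPM at 12 hours, in libraries 1a, 1b and 2. Every library at 12 hours was above every library at 0h, with means of 1154 ± 457 and 283 ± 109 CPM (SD, n = 3) and a log2 fold change of 1.81 (SE 0.40, edgeR adjusted p = 0.0249). Itgal was 1135, 483 and 1076 CPM at 0h and 301, 228 and 319 CPM at 12 hours, again without overlap. Its log2 fold change was -1.84 (SE 0.37, edgeR adjusted p = 0.0186). Itgax showed the widest gap, with 59.7, 42.6 and 86.2 CPM at 0h and 3.85, 4.47 and 2.78 CPM at 12 hours (log2 fold change -4.22, SE 0.38, edgeR adjusted p = 0.00178). The lowest values of all 3 genes at 0h came from library 1b, and the calls held with the libraries 1b left out, with log2 fold changes of -2.06, 1.86 and -4.67 for Itgal, Itgam and Itgax. With all 8 groups in the fit Itgal was not called (edgeR adjusted p = 0.0525), and with no filter on low counts Itgax alone was. Leaving out WT library 1a or 2 at 12 hours left none of the 3 called, and leaving out library 1a or 2 at 0h left Itgax alone, with log2 fold changes of -4.26 and -3.86.

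Among the other members in WT blood, Itgb2 was 2252, 759 and 1813 CPM at 0h and 3333, 2181 and 2821 CPM at 12 hours. These ranges overlapped, at a log2 fold change of 0.62 (SE 0.43, edgeR adjusted p = 0.388). Fermt3, whose product binds the β tail beside talin, was 278, 99.95 and 259 CPM at 0h and 584, 391.6 and 482 CPM at 12 hours. Its ranges did not overlap, but the log2 fold change of 1.03 (SE 0.38) did not pass edgeR's test (adjusted p = 0.12), while DESeq2's Wald test called it (adjusted p = 0.0191). Tln1 was likewise apart, at 486, 342 and 466 CPM and then 752, 839 and 798 CPM, with a log2 fold change of 0.71 (SE 0.32, edgeR adjusted p = 0.189). In all, 5 members had no overlap between the times, as had 34.7% of the genes tested. Skap2, Apbb1ip and Rap1b overlapped, with log2 fold changes of -0.28, -0.51 and 0.62. The neutrophil marker sum was 29407 to 49689 CPM at 0h and 116407 to 212372 CPM in these libraries at 12 hours, with S100a8 5.40-fold higher and Csf3r at 0.167 of its baseline (edgeR adjusted p = 0.0178 and 0.0182). The monocyte, macrophage and dendritic cell sum was 491 to 1310.3 CPM at 0h and 549 to 1062 CPM at 12 hours, and 4 of its genes fell, Siglecf, Ccr2 and Csf1r among them, while Ly6c2 rose. The part of these shifts in the change of Itgax and Itgal was not tested, and in sorted bulk RNA fewer cells of a type and less RNA per cell cannot be told apart.

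**Figure D2:**
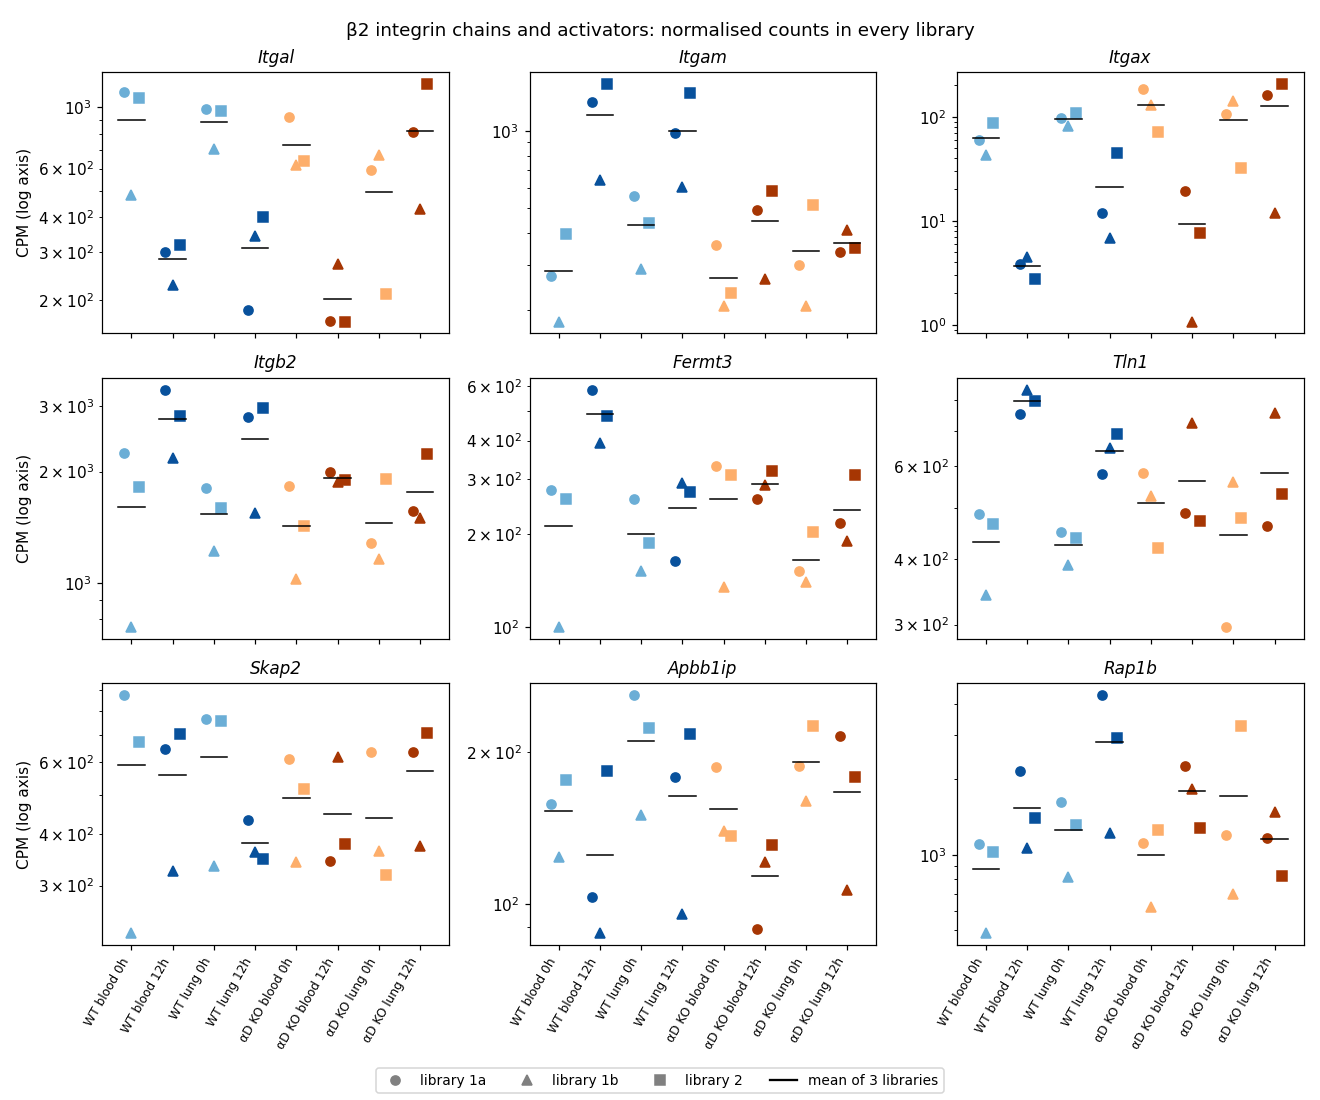
Normalised counts (CPM, log axis) of the 9 genes in every library, by group on the x axis, with a symbol for each library number and a line at the mean of 3 libraries. Itgam is higher and Itgal and Itgax lower at 12 hours than at 0h in WT blood, without overlap, and the αD KO lung groups are spread widely for Itgal and Itgax.

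In the lung of WT mice Itgax fell to 0.202 of its baseline, while Itgal and Itgam had log2 fold changes of the same signs as in blood and did not pass edgeR's test. Itgax was 96.8, 81.7 and 108 CPM at 0h and 11.8, 6.82 and 44.9 CPM at 12 hours, and fell with a log2 fold change of -2.31 (SE 0.59, edgeR adjusted p = 0.0468). It was the only member called, against 9.02% of the 14859 genes tested. Itgal was 988, 705 and 968 CPM at 0h and 185, 343 and 403 CPM at 12 hours, without overlap (log2 fold change -1.49, SE 0.46, edgeR adjusted p = 0.079). Itgam was 556, 289 and 437 CPM at 0h and 979.9, 604 and 1398 CPM at 12 hours, also without overlap (log2 fold change 1.14, SE 0.40, edgeR adjusted p = 0.112). Tln1 was the 4th member without overlap, at a log2 fold change of 0.59 (SE 0.36, edgeR adjusted p = 0.338), and 28.5% of the genes tested had none.

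These calls turned on single libraries. Without WT lung library 1b at 12 hours, edgeR called Itgal, Itgam and Itgax, and also Rap1b, with log2 fold changes of -1.90, 1.18, -2.06 and 1.22. The share of all genes called in that fit is not given here, so this count has no background beside it. Without any other single library no member was called, and the log2 fold change of Itgax was -3.59 without library 2 at 12 hours. With the libraries 1b left out of both groups (2 against 2), 5 members were called, and so were 37.2% of the 14258 genes tested. They were Itgal (log2 fold change -1.96), Itgam (1.03), Itgax (-2.08), Rap1b (1.06) and the adaptor gene Skap2 (-1.20). DESeq2 called Itgal, Itgam and Itgax with all libraries (adjusted p = 0.00608, 0.0336 and 0.00224). With all 8 groups in the fit Itgax was not called (edgeR adjusted p = 0.216). With the files of sample 1 summed, Itgal was called (log2 fold change -1.69, edgeR adjusted p = 0.0291) and Itgax was not (-2.10, edgeR adjusted p = 0.121). Skap2 was 764, 335 and 755 CPM at 0h and 433, 362 and 348 CPM at 12 hours, so that library 1b at 0h lay below every library at 12 hours and the other libraries at 0h above them. Rap1b was 1623, 816 and 1316 CPM at 0h and 4322, 1222 and 2911 CPM at 12 hours. Itgb2 was 1801, 1221 and 1597 CPM and then 2816, 1542 and 2979.6 CPM, with overlap (log2 fold change 0.59, SE 0.38, edgeR adjusted p = 0.368). Fermt3 did not pass the test, at 259, 152 and 187 CPM and then 164, 292 and 274 CPM, and Apbb1ip had a log2 fold change of -0.45. The neutrophil marker sum in these libraries was 37768 to 53410 CPM at 0h and 78738 to 143640 CPM at 12 hours. Of the monocyte, macrophage and dendritic cell markers Csf1r, Adgre1 and Siglecf fell and Ly6c2 rose, with a sum of 668 to 1095 CPM and then 565 to 906 CPM, and the B cell marker Cd79b fell. The part of these markers in the changes of the members was not tested.

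In the blood of mice labelled αD KO, Itgal and Itgax fell after CLP and Itgam did not pass the test. Itgal was 925, 620.0 and 639 CPM at 0h and 169, 271 and 168 CPM at 12 hours, without overlap (log2 fold change -2.03, SE 0.35, edgeR adjusted p = 0.0145). Itgax was 186, 128 and 70.7 CPM at 0h and 19.2, 1.07 and 7.58 CPM at 12 hours (log2 fold change -4.07, SE 0.86, edgeR adjusted p = 0.0286). The share of genes called was 8.75% of 14156, against 2 of the 9 members. Itgam was 358, 208 and 234 CPM at 0h and 489, 265 and 584 CPM at 12 hours, where library 1b at 12 hours lay within the range at 0h (log2 fold change 0.51, SE 0.32, edgeR adjusted p = 0.342).

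Among the remaining members in αD KO blood, Itgb2 was 1833, 1027 and 1423 CPM at 0h and 1991, 1877 and 1899.9 CPM at 12 hours, apart but with a log2 fold change of 0.23 (SE 0.27, edgeR adjusted p = 0.614). Apbb1ip and Rap1b were also apart, at log2 fold changes of -0.66 and 0.67 (edgeR adjusted p = 0.178 and 0.237). With Itgal and Itgax these made 5 members without overlap, as had 32.2% of the genes tested. The log2 fold changes of Fermt3, Tln1 and Skap2 were -0.01, -0.07 and -0.29. With all 8 groups in the fit neither Itgal nor Itgax was called (edgeR adjusted p = 0.0635 and 0.0593). Leaving out αD KO library 1a at 0h or library 2 at 12 hours left no member called, without library 1b at 0h Itgal alone was called, and without library 1a at 12 hours Itgax alone, at a log2 fold change of -5.07. Libraries 1a and 2 of αD KO blood at 0h had platelet marker sums of 713 and 809 CPM, against 12.3 to 201 CPM in the other 22, and library 2 had a B cell marker sum of 1588 CPM. Of the 11 tested monocyte, macrophage and dendritic cell markers 5 fell and 0 rose in αD KO blood, with Siglecf, Csf1r, Adgre1 and Flt3 at the smallest p and a median log2 fold change of -3.59 over the list. Their sum was 670.2 to 1747 CPM at 0h and 591 to 731 CPM at 12 hours. The neutrophil marker sum was 35425 to 60880 CPM at 0h and 122867 to 153332 CPM at 12 hours, with S100a8, S100a9, Retnlg and Mmp8 called higher and Csf3r lower. The platelet markers Treml1, Gp6 and Gp1bb, the B cell marker Ms4a1 and the NK cell marker Ncr1 were called lower, with median log2 fold changes over these 3 lists of -3.89, -3.10 and -4.75. The part of these markers in the changes of Itgal and Itgax was not tested.

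In the lung of mice labelled αD KO, edgeR called no member between the times and no gene of the 17939 tested, a share of 0.0%. DESeq2 called 0 members, and the unadjusted p was under 0.05 for 0 members and 72 genes. The spread was wide. Itgal was 594, 673 and 211 CPM at 0h and 814, 428 and 1217 CPM at 12 hours, and Itgax was 106, 141 and 32.2 CPM and then 161, 11.9 and 208 CPM. For both genes library 2 at 0h was the lowest of its group and library 1b at 12 hours the lowest of its own. Library 2 at 0h also had 3249 CPM of Rap1b, where libraries 1a and 1b had 1195 and 699 CPM, and 512 CPM of Itgam, where the others had 301 and 207 CPM. Without library 2 at 0h the log2 fold changes were 0.41 for Itgal, 0.075 for Itgax and 0.57 for Itgam, and without library 1b at 12 hours they were 1.02, 0.96 and 0.016. No member was called without any single library. With all libraries, the log2 fold changes of Itgb2, Fermt3, Tln1, Skap2, Apbb1ip and Rap1b were 0.35, 0.58, 0.49, 0.40, -0.17 and -0.40, and all their ranges overlapped.

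**Figure D3:**
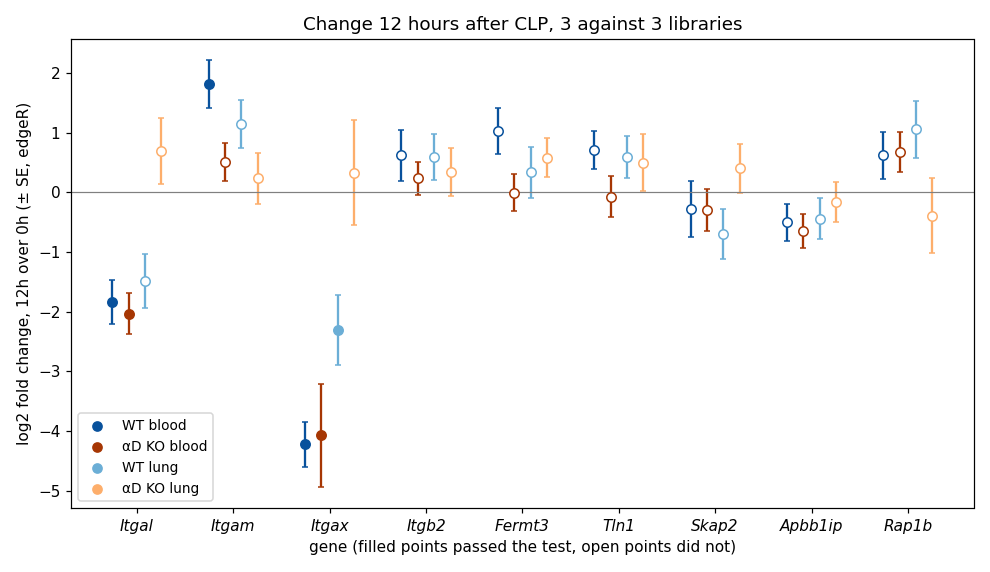
Log2 fold change of each gene at 12 hours over 0h with its SE (edgeR, 3 against 3 libraries), for WT and αD KO blood and lung, where filled points passed the test. Itgax and Itgal are the lowest in blood of both genotypes and in WT lung, and all αD KO lung points are open.

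Whether the change after CLP differed between genotypes was tested as an interaction. In blood edgeR called 0 members and 0 genes (0.0% of 19792, 232 genes and 0 members at an unadjusted p under 0.05), and the largest difference among the members was that of Itgam at -1.17 (SE 0.67, adjusted p = 1). In lung it also called 0 members and 0.0% of 23211 genes (unadjusted p under 0.05 for 2432 genes and 1 member). DESeq2 called 0 members in either tissue. The members showed differences of 2.27 for Itgal (SE 0.77, adjusted p = 0.41), 2.68 for Itgax (SE 1.26, adjusted p = 0.488) and -1.44 for Rap1b (SE 0.80, adjusted p = 0.584). A positive difference means that the log2 change was higher in the libraries labelled αD KO. With the libraries 1b left out, Itgal (3.31, edgeR adjusted p = 0.034) and Itgax (3.50, edgeR adjusted p = 0.0451) passed the test in lung, beside 13.2% of the 18773 genes tested. Without αD KO lung library 2 at 0h alone the differences of Itgal, Itgax and Rap1b were 1.90, 2.27 and -0.73, and without αD KO lung library 1b at 12 hours alone they were 2.58, 3.23 and -1.71, none of them called.

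The next comparison was between the genotypes at each time. These comparisons share their groups with those above and are not independent of them. Neither edgeR nor DESeq2 called a member in any of the 4 pairs of groups. The genes called overall were 0.0115% of 17356 in blood at 0h, and 0.0% of 12596, 18232 and 16764 in blood at 12 hours, lung at 0h and lung at 12 hours. At an unadjusted p under 0.05 there were 1, 2, 0 and 3 members and 123, 505, 340 and 1390 genes, in the same order. At the baseline in blood the member log2 fold changes, αD KO over WT, were between -0.28 and 1.04. The highest was that of Itgax, at 186, 128 and 70.7 CPM against 59.7, 42.6 and 86.2 CPM, with overlap (SE 0.39, edgeR adjusted p = 1). Markers of other cells had positive log2 fold changes in the same comparison, 9 of 12 for monocytes, macrophages and dendritic cells (median 1.33), and all 8 for platelets (2.28), B cells (2.09) and T and NK cells (2.80), none of them called, and their part was not tested. The summed CPM of each of these lists overlapped between the genotypes. The B cell and T and NK cell sums of αD KO library 2 were 1588 and 335 CPM, against 197 and 29.5 CPM in library 1a and 66.9 and 13.7 CPM in library 1b. Library 2 had the lowest Itgax of the αD KO libraries. At the baseline in lung the member log2 fold changes were between -0.78 for Itgal and 0.38 for Rap1b. Itgal, at 594, 673 and 211 CPM against 988, 705 and 968 CPM, was the 1 member without overlap there, as were 6.85% of the genes tested (SE 0.52, edgeR adjusted p = 0.983). Without αD KO lung library 2 its log2 fold change was -0.44 and that of Rap1b -0.35. In the same comparison 0 of 8 B cell markers were higher (median -0.89), 8 of 8 lung structural markers (0.61) and 5 of 8 neutrophil markers (0.86). The medians were -0.22 for platelets, -0.17 for T and NK cells and -0.10 for monocytes, macrophages and dendritic cells, against 0.17 over all genes. None of these markers was called, and their part was not tested.

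At 12 hours in blood, Itgam was 489, 265 and 584 CPM in αD KO-labelled libraries and 1296, 642 and 1523 CPM in WT. All 3 αD KO values lay below the 3 WT values, at a log2 fold change of -1.36 (SE 0.34, unadjusted p = 0.00353), which did not pass after adjustment over all genes (edgeR adjusted p = 0.962). Itgb2, Fermt3 and Tln1 were lower without overlap as well, at log2 fold changes of -0.51, -0.73 and -0.49 (edgeR adjusted p = 0.962 for each). These 4 of 9 members stand beside 7.93% of the genes tested that had no overlap. The median log2 fold change was -0.43 over the members and 0.03 over all genes tested. It was -0.25 over the neutrophil markers (7 of 8 below 0), -0.57 over the monocyte, macrophage and dendritic cell markers (7 of 9) and -0.78 over the B cell markers (6 of 7). The platelet markers went the other way, with a median of 0.83 (6 of 7 above 0). Medians of the T and NK cell and the lung structural markers were -0.51 and -0.03. None of these markers was called, the sums of each list overlapped between the genotypes, and their part in the differences of the members was not tested. With the libraries 1b left out, the log2 fold change of Itgam was -1.38 and its edgeR adjusted p 0.0645. Itgal, Skap2 and Apbb1ip had log2 fold changes of -0.43, -0.23 and -0.10, and Itgax and Rap1b of 1.20 and 0.26.

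At 12 hours in lung, Itgam was 337, 411 and 350.0 CPM in αD KO-labelled libraries and 979.9, 604 and 1398 CPM in WT, again without overlap (log2 fold change -1.21, SE 0.42, edgeR adjusted p = 0.598). Itgal was higher without overlap, at 814, 428 and 1217 CPM against 185, 343 and 403 CPM (log2 fold change 1.50, SE 0.53, edgeR adjusted p = 0.598). These 2 of 9 members stand beside 1678 of the 16764 genes tested (10%) without overlap. Itgax was 161, 11.9 and 208 CPM against 11.8, 6.82 and 44.9 CPM, where αD KO library 1b fell within the WT range (log2 fold change 2.78, SE 0.99, edgeR adjusted p = 0.598). Without that library the log2 fold changes of Itgal, Itgax and Itgam were 1.72, 3.23 and -1.46, none of them called. With the libraries 1b left out, the test called 4 members, Itgal (1.92), Itgax (2.82), Itgam (-1.65) and Rap1b (-1.70), and 30.1% of the 15574 genes tested. Rap1b was 1165, 1485 and 827 CPM in αD KO-labelled libraries and 4322, 1222 and 2911 CPM in WT. The neutrophil marker sums in lung at 12 hours were 54743 to 91795 CPM in αD KO and 78738 to 143640 CPM in WT. Of the 10 tested monocyte, macrophage and dendritic cell markers 9 had positive log2 fold changes (median 1.37), as had 6 of 8 B cell markers (median 1.77), none of them called, against a median of 0.13 over all genes. Their sums overlapped between the genotypes, at 625 to 1075 CPM in αD KO and 565 to 906 CPM in WT for the former and 38.6 to 208 CPM and 25.0 to 310.2 CPM for the B cell markers. The part of these markers in the differences of the members was not tested.

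**Figure D4:**
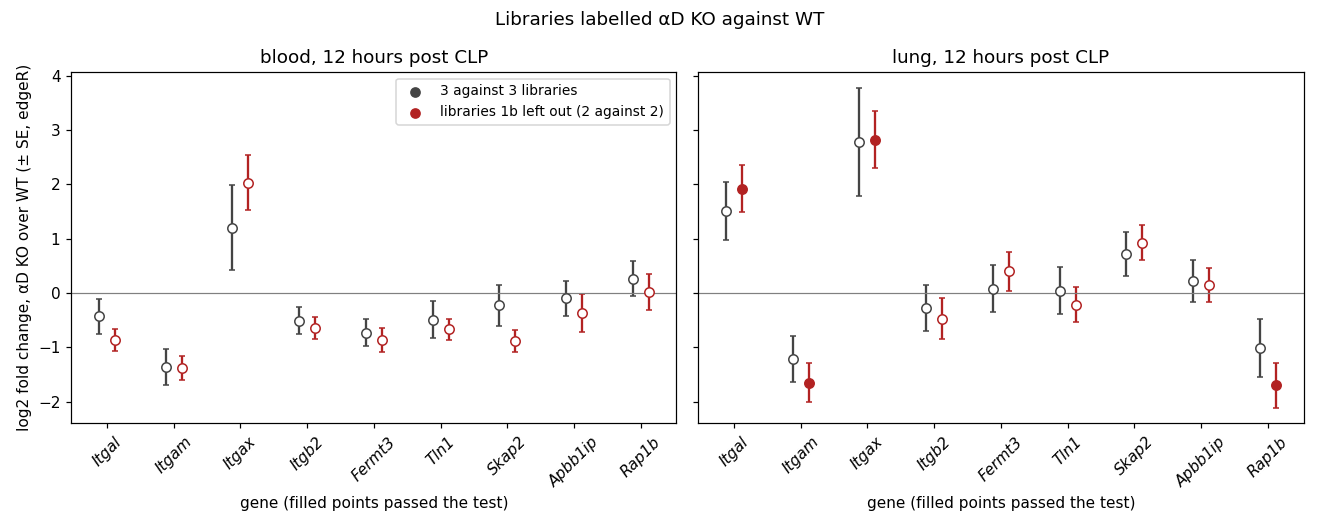
Log2 fold change of each gene in the libraries labelled αD KO over WT at 12 hours, with its SE (edgeR), with all libraries (grey) and with the libraries 1b left out (red), where filled points passed the test. Itgam is below 0 in both tissues, and in lung 4 genes are filled with the libraries 1b left out.

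Lung and blood were compared within each genotype and time. At the baseline no member and no gene was called in WT (0.0% of 15967) or in αD KO (0.0% of 19000), and the members' log2 fold changes were between -0.14 and 0.53 in WT and between -0.64 and 0.74 in αD KO, with overlap for all 9 genes in both. The highest value in αD KO was that of Rap1b, which was 0.11 without αD KO lung library 2. DESeq2 called 0 members, and the unadjusted p was under 0.05 for 1 and 0 members and 406 and 553 genes. In αD KO at the baseline, median log2 fold changes were -4.62 over platelet, -2.60 over B cell and -3.56 over T and NK cell markers. They were -1.71 over monocyte, macrophage and dendritic cell markers and 3.42 over lung structural markers. In αD KO blood, library 2 had the highest B cell and T and NK cell sums, 1588 and 335 CPM. None of these markers was called, and their part was not tested. At 12 hours in WT, 0 members and 0.0442% of 13590 genes were called. Itgax was 11.8, 6.82 and 44.9 CPM in lung and 3.85, 4.47 and 2.78 CPM in blood, without overlap (log2 fold change 2.46, SE 0.65, edgeR adjusted p = 0.144, DESeq2 adjusted p = 0.00649). Fermt3 was lower in lung, at 164, 292 and 274 CPM against 584, 391.6 and 482 CPM, without overlap (log2 fold change -0.79, SE 0.43, edgeR adjusted p = 0.353). Tln1 was the third member without overlap, at a log2 fold change of -0.19, and 22.4% of the genes tested had none. All 8 lung structural markers had positive log2 fold changes (median 4.20), of which Epas1 was called, and their sum was 83.4 to 339 CPM in lung and 13.0 to 17.2 CPM in blood. Their part in the differences of the members was not tested. Without WT lung library 1b, Itgax (2.79), Fermt3 (-1.27) and Rap1b (1.10) were called, and with the libraries 1b left out of both groups Itgax (3.10) and Fermt3 (-1.30) were, beside 28.2% of the 13385 genes tested. That share belongs to the latter fit, and the share without WT lung library 1b alone is not given here.

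At 12 hours in the mice labelled αD KO, 0 members and 0.0548% of 14592 genes were called between lung and blood. Itgal was 814, 428 and 1217 CPM in lung and 169, 271 and 168 CPM in blood, without overlap, as 28.8% of the genes tested (log2 fold change 2.13, SE 0.45, edgeR adjusted p = 0.092). Itgax was 161, 11.9 and 208 CPM in lung and 19.2, 1.07 and 7.58 CPM in blood, where lung library 1b fell within the range of blood (log2 fold change 3.89, SE 1.09, edgeR adjusted p = 0.117). With the library number as a block, Itgax was called (log2 fold change 3.97, edgeR adjusted p = 0.0382). Without αD KO lung library 1b both Itgal (2.35) and Itgax (4.41) were called, and without αD KO blood library 1b Itgal (2.42) was. For these fits the share of all genes called is not given here. With the libraries 1b left out, Itgal (2.76), Itgax (3.96), Skap2 (1.06) and Apbb1ip (1.02) passed, and so did 34.3% of the 14240 genes tested. Lung structural markers such as Scgb1a1 summed to 42.9 to 194 CPM in these lung libraries and to 6.18 to 24.2 CPM in blood. Of the 11 tested monocyte, macrophage and dendritic cell markers 9 had positive log2 fold changes (median 1.70 against 0.066 over all genes) and 0 were called, with sums of 625 to 1075 CPM in lung and 591 to 731 CPM in blood. The part of these markers in the differences of Itgal and Itgax was not tested. Whether the change with time differed between the tissues was also tested as an interaction, and edgeR called 0 members and 0.0% of the 23497 genes in WT and 0.0% of the 22218 genes in αD KO. At an unadjusted p under 0.05 there were 1 and 2 members and 1290 and 2352 genes. The differences of Itgal and Itgax in αD KO were 2.56 and 4.28 (edgeR adjusted p = 0.403 for both, and log2 differences of 2.22 and 3.88 without αD KO lung library 2 at 0h), which DESeq2 called (adjusted p = 0.0388 and 0.0496).

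A ratio of 2 genes within a library does not depend on the scaling between libraries, and the ratio of Itgam to Itgal per kb was computed for this reason after the levels had been seen. In WT blood it was 0.314, 0.489 and 0.482 at 0h and 5.63, 3.67 and 6.24 at 12 hours. In WT lung it was 0.736, 0.536 and 0.591 at 0h and 6.92, 2.31 and 4.54 at 12 hours. Counted over the full annotated length of Itgam, every WT library thus had more Itgal than Itgam per kb at the baseline and the reverse after CLP. The order at the baseline would not hold with Itgam counted on its 1574 unshared bases alone. The fold change of the ratio does not depend on the length used. The geometric mean at 12 hours was 12.0-fold higher in WT blood and 6.78-fold higher in WT lung (log2 differences 3.59 and 2.76, SE 0.31 and 0.48). In αD KO blood it was 0.507, 0.438 and 0.479 at 0h and 3.79, 1.28 and 4.55 at 12 hours, 5.92-fold higher (log2 difference 2.57, SE 0.57). Each of these changes had an exact two-sided permutation p of 0.1, the smallest that 3 against 3 libraries allow, and 0.322 after adjustment over the 132 ratio comparisons made.

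In αD KO lung the same ratio was 0.661, 0.403 and 3.17 at 0h and 0.542, 1.26 and 0.376 at 12 hours. Library 2 at 0h lay within the range of 1.28 to 6.92 seen in the other 9 libraries at 12 hours, and libraries 1a and 2 at 12 hours lay within the range of 0.314 to 0.736 of the other 9 libraries at 0h. Library 1b at 12 hours, at 1.26, lay between these ranges. On this measure the 3 libraries were unlike those of the same time in the other groups. Whether the time labels of αD KO lung libraries were exchanged was not tested, and every αD KO lung value depends on them. The ratio in αD KO lung at 12 hours was lower than in WT lung without overlap (log2 difference -2.71, SE 0.69, exact permutation p = 0.1, adjusted 0.322). In blood at 12 hours the ratios of the genotypes overlapped (log2 difference -0.85, SE 0.62).

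**Figure D5:**
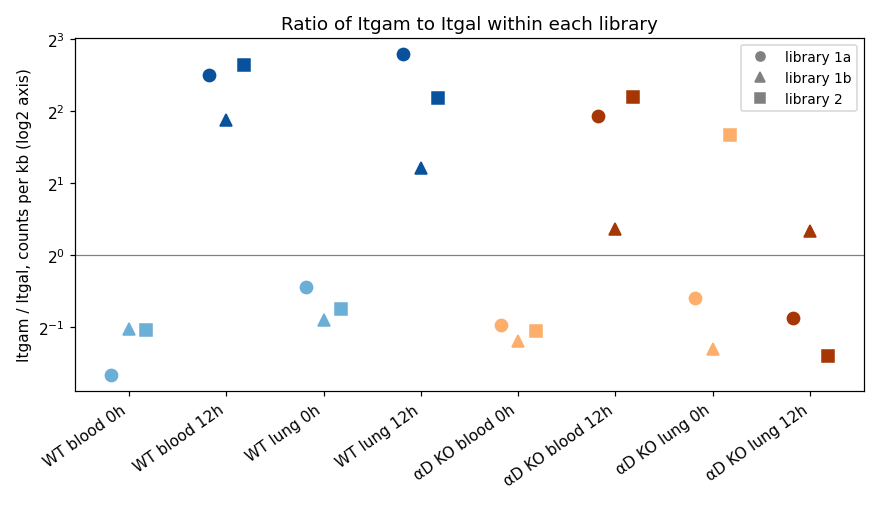
Ratio of Itgam to Itgal in counts per kb within each library (log2 axis) by group, with a symbol for each library number and a line at 1. The ratio lies between 0.314 and 0.736 at 0h and between 1.28 and 6.92 at 12 hours in all groups but αD KO lung, where it is 0.376 to 3.17.

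The β2 chain and its activators were compared in the same way. The ratio of Itgb2 to the sum of the 3 α chains per kb was 2.04 to 2.20 in WT lung at 0h and 2.80 to 4.09 at 12 hours, and 2.07 to 2.94 and then 4.34 to 6.53 in αD KO blood, without overlap in either. In WT blood it was 2.10 to 3.08 and then 2.62 to 4.37, and in αD KO lung 2.20 to 4.45 and then 2.28 to 3.29, with overlap in both and log2 differences of 0.49 (SE 0.27) and -0.12 (SE 0.36). These sums count Itgam over its full annotated length, and on its unshared bases alone Itgam would weigh more. The values and the separation of the times thus depend on how the shared exons of Itgam were counted. Relative to Itgb2, Skap2 was lower at 12 hours without overlap in WT blood (log2 difference -0.87, SE 0.24), WT lung (-1.23, SE 0.38) and αD KO blood (-0.61, SE 0.28), but not in αD KO lung (0.10, SE 0.50). Apbb1ip relative to Itgb2 was lower without overlap in the same 3 groups, with log2 differences of -1.26, -1.04 and -0.91, and -0.54 with overlap in αD KO lung. The ratio of Fermt3 to Itgb2 in WT blood was 0.207, 0.212 and 0.201 at 12 hours and 0.146, 0.155 and 0.168 at 0h. In αD KO lung it was also higher at 12 hours without overlap (log2 difference 0.22, SE 0.073), while in WT lung and αD KO blood the ranges overlapped (-0.35, SE 0.50, and -0.21, SE 0.24). All of these had an exact permutation p of 0.1 or more and 0.322 or more after adjustment.

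Among the 9 members, the level of Itgb2 over the 24 libraries varied most closely with that of Itgam, and the level of Itgal with that of Itgax. As a description over libraries that share groups and depth, Pearson's r of log2 CPM was 0.83 between Itgam and Itgb2, 0.77 between Itgb2 and Fermt3, 0.72 between Itgb2 and Rap1b, and 0.77 between Itgal and Itgax. It was -0.48 between Itgal and Itgam, -0.51 between Itgam and Itgax and -0.64 between Itgax and Tln1. Among 27145 genes, the gene most like Itgb2 was Coro1a (r = 0.949), which encodes the actin-binding protein coronin 1A. The gene most like Itgax was Clec7a (0.945), the β-glucan receptor dectin-1, that most like Itgal was Card10 (0.965) and that most like Itgam was Gm14548 (0.917). For the activators these genes were Plekha2 for Fermt3 (0.950), Wapl for Rap1b (0.955), Myl12b for Skap2 (0.926), 4833407H14Rik for Apbb1ip (0.921) and Slc4a2 for Tln1 (0.856). Apbb1ip also had Cd44, the hyaluronan receptor, among its 3 most alike genes (0.880).

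The other genes of the pathway were read from lists named by role, and the changes at 12 hours in WT blood are given first. Of 12 other leukocyte integrin genes 0 rose and 4 fell, with a median log2 fold change of -1.98 against -0.15 over all genes. Itga4, the α4 chain of VLA-4, was 252 ± 79.9 CPM at 0h and 21.7 ± 7.12 CPM at 12 hours (log2 fold change -3.72, SE 0.36, edgeR adjusted p = 0.00188), and its partner Itgb7 fell with a log2 fold change of -3.20. Itga6 and Itgb3 also fell, and Itgb3, the β3 chain of platelets, is on the platelet marker list, of which 3 of 8 genes fell and the sum was 68.3 to 201 CPM at 0h and 21.8 to 58.6 CPM at 12 hours. Of 10 genes that tie the integrin tail to actin 3 rose and 0 fell. They were Vcl, encoding vinculin (log2 fold change 1.83, edgeR adjusted p = 0.00641), Lims1, encoding the adaptor PINCH1 (2.57, edgeR adjusted p = 0.0136), and Vasp, which promotes actin filament growth (1.40, edgeR adjusted p = 0.0345).

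Genes that restrain or recycle integrins were split in WT blood. Flna, whose product filamin A competes with talin for the β tail, rose from 792 ± 214 to 3627 ± 83.6 CPM (log2 fold change 2.02, edgeR adjusted p = 0.0136), while Cytip, encoding a cytohesin-binding protein, fell (-1.23, edgeR adjusted p = 0.0434), and the other 6 of 8 were not called. Of the 14 tested genes of the Rap1 switch, Sipa1l1, of a family of Rap GTPase-activating proteins, was the 1 that passed, with a rise of 1.37 on the log2 scale (edgeR adjusted p = 0.0125). Of 14 outside-in signalling genes 0 fell. Of 4 ligand genes Icam1 rose (2.09, edgeR adjusted p = 0.0482) and Jam3 fell (-5.10, edgeR adjusted p = 0.00511). None of the 4 tested of 6 paralogs of kindlin, talin and the adaptors passed.

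In WT lung the same 3 cytoskeleton genes rose, Vcl (1.44), Lims1 (2.39) and Vasp (1.84), Sipa1l1 rose (3.39), and Itga4 (-3.37) and Pik3cg, the catalytic subunit of PI3-kinase γ, fell (-1.51), all with an edgeR adjusted p of 0.0259 to 0.0473. Sipa1l1 had an SD of 284 on a mean of 289 CPM at 12 hours there. In αD KO blood Sipa1l1 (2.55), Rassf5 (1.24), which encodes the Rap1 effector RAPL, and Vasp (1.51) rose. Of the 12 other integrin genes 5 fell, with Itgb7, Itga4, Itga6 and Itgb5 at the smallest p, as did Pik3cg, Dok1, Parvb, Skap1 and Jam3. Skap1, the T cell paralog of Skap2, had an SD of 9.52 on a mean of 9.45 CPM at 0h, where library 2 had a T and NK cell marker sum of 335 CPM against 13.7 and 29.5 CPM in the others, and the part of this and of the platelet sums in these falls was not tested. In αD KO lung 0 of the list genes were called with time. Between genotypes the 1 list gene called by edgeR was Itgad in blood at 0h (log2 fold change 4.61, SE 0.33, edgeR adjusted p = 0.0209). The library number as a block (adjusted p = 0.0882), the files of sample 1 summed (0.646) and each single library left out (0.0963 to 0.84) ended this call of edgeR, with log2 fold changes of 4.35 to 4.90 without 1 library. DESeq2 called Itgad between genotypes in all 4 pairs of groups (adjusted p = 3.83e-34 to 1.07e-06), and with all 8 groups in the fit edgeR called it in blood at 0h (adjusted p = 0.0268), blood at 12 hours (0.00502) and lung at 12 hours (0.000280). With time Itgad was called lower in blood, at -3.84 in WT and -2.32 in αD KO (edgeR adjusted p = 0.0336 and 0.0079, up to 0.399 and 0.0788 with 1 library left out), and between tissues no pathway gene was called. As the background shares above show, 8.75% to 13.5% of all genes were called with time in these groups with calls.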

How the data were processed

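RNA from sorted neutrophils was amplified to full-length cDNA and sequenced, and the authors trimmed the reads (Trimmomatic 0.36), aligned them to GRCm38 (mm10) with STAR 2.5.2b and counted uniquely mapped reads in exons. The deposited values are raw counts per gene, in 24 files from 16 samples. Pairs of files of the same sample differed by far more than sampling noise (chi-square per degree of freedom 63.5 to 328), so each file was kept as a library, 3 per group. Genes passed filterByExpr, were scaled by TMM and tested with edgeR 4.0.16 in R 4.3.3 (quasi-likelihood F test, only the groups compared in each fit, Benjamini-Hochberg adjustment over all genes tested). A gene was called when its adjusted p was below 0.05 and its log2 fold change above 1 or below -1, and an interaction by the adjusted p alone. SD is over libraries, and an SE is that of the fitted log2 fold change. Ratios were compared by an exact two-sided permutation test (scipy 1.17.1, Python 3.11.15).

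The members and lists were chosen with earlier results of these data known. The text names all members, the pathway list genes called in a comparison (the 4 with the smallest p where more were called), and genes among the 3 most alike to each member. Of the cell type markers called, only some are named. The results of 2 list genes are not reported here. Symbols came from the reference annotation, which gave one for 48970 of the 49315 identifiers, and coordinates and exon lengths from the files. The alternatives were RLE scaling, other filters, DESeq2 1.42.0, all 8 groups in the fit, both files of sample 1 summed, libraries 1b left out, each library left out, and the library number as a block. Adding Gm49368 to Itgam was chosen after seeing the data, as was a fit without 2 αD KO lung libraries, whose values are not given because the libraries were picked on the members' own values. Same-numbered libraries deviated together over 27145 genes (every correlation over 0.1) in 10 of 12 comparisons, the exceptions being lung at 0h between genotypes and αD KO lung against blood at 0h, both for library 1a. Whether a number marks a shared animal or day is not given in the sources used here. The fits were also run on simulated counts with known changes. Those counts held no shift particular to the libraries 1b, so they cannot bear on calls that turn on these libraries.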

Additional observations from a re-analysis of the deposited data

How the results depend on the processing

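Among the 144 log2 fold changes of single members, 168 of 2275 alternative values had the other sign, 101 of them from leaving out 1 library, and 9 differed by more than 1 SE. The 6 called values kept their sign in every alternative. The 9 larger changes of sign, all in values that were not called, were Itgam in αD KO over WT blood at 0h without WT library 2 (0.29), Fermt3 and Rap1b in αD KO over WT lung at 0h without WT library 1a (0.020) and αD KO library 2 (-0.35), Fermt3 in WT lung with time with the libraries 1b left out (-0.25) or without library 1b at 12 hours (-0.17), Itgam and Rap1b in αD KO lung with time with the libraries 1b left out (-0.24) and without library 2 at 0h (0.34), Tln1 in αD KO lung over blood at 12 hours without lung library 1b (-0.15), and Itgax in the interaction of genotype and time in blood without αD KO library 1a at 12 hours (-0.80). Over all single libraries left out, these values ranged from -0.40 to 0.020 for Fermt3 and -0.35 to 0.75 for Rap1b in αD KO over WT lung at 0h, from -0.17 to 0.54 for Fermt3 in WT lung with time, from -0.78 to 0.34 for Rap1b in αD KO lung with time, from -0.15 to 0.52 for Tln1 in αD KO lung over blood, and from -0.80 to 0.82 for Itgax in the interaction in blood. Their causes were not tested.

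Counts of members called moved as follows. With no filter on low counts, 1 was called in WT blood with time (3 before), 1 in WT lung over blood at 12 hours (0 before) and 2 in αD KO lung over blood at 12 hours (0 before). DESeq2 called 4 in WT blood (Fermt3 gained) and 3 in WT lung with time (1 before), 1 in WT lung over blood, 2 in αD KO lung over blood and 2 in the interaction of tissue and time in αD KO. With at least 10 counts in every library 2 were called in WT lung with time, and with all 8 groups in the fit 2 in WT blood (Itgal lost), 0 in WT lung and 0 in αD KO blood with time (2 before). With the files of sample 1 summed 2 were called in αD KO lung over blood at 12 hours. With the libraries 1b left out the counts were 4 in αD KO over WT lung at 12 hours, 5 in WT lung with time, 2 and 4 in lung over blood at 12 hours in WT and αD KO, and 2 in the interaction of genotype and time in lung. Leaving out 1 library gave 0 to 3 in WT blood, 0 to 4 in WT lung and 0 to 2 in αD KO blood with time, and 0 to 3 and 0 to 2 in lung over blood at 12 hours in WT and αD KO. The shares of all genes called with 1 library left out are not given here, so these counts cannot be set against them. The replicate block, which pairs libraries by number, gave 1 in αD KO lung over blood at 12 hours (Itgax) and changed no other count of members. RLE scaling and dropping the fold threshold left every count as it was, and RLE moved the median of all genes by at most 0.09 between groups and 0.21 in interactions, on the log2 scale.

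Itgax rested on few counts in blood at 12 hours (12 in the lowest library), while every other member had far higher counts in all libraries. A value that missed the threshold is not shown to be equal between groups. The libraries 1b changed many of these counts, and their lower depth and larger number of detected genes cannot be told apart from the number they carry.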
